A study of Zea mays with 2 samples.

Results

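Sites bound by the maize transcription factor Opaque2 (O2) on chromosome 4 were taken as every row of that chromosome in the deposited lists of O2 peaks. They numbered 290 of 2567 sites in the list marked release 26 (the later list) and 200 of 1686 sites in the list marked release 15 (the earlier list). The other 9 chromosomes held 2265 and 1481 sites. Both lists came from 1 chromatin immunoprecipitation library made with a rabbit antibody against full-length O2, set against 1 library in which rabbit IgG took its place. The material was wild-type endosperm, the starchy tissue that stores reserves in the kernel, collected 15 days after pollination, and no tissue without O2 was analysed here. With 1 library per antibody no value has a replicate error and no test was made. Intervals of 95% below (exact Poisson for counts and densities, exact binomial for shares and medians) cover counting error only, and the depth of the libraries is unknown.

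O2 is a basic leucine zipper protein that binds DNA at motifs with an ACGT core and activates storage protein genes in the endosperm. Its classic targets are the alpha-zeins, the alcohol-soluble proteins that fill the protein bodies of the maize kernel. Alpha-zein genes arose by repeated tandem duplication, so their copies lie side by side and are highly alike in sequence. Chromosome 4 is known for carrying their main clusters.

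Gene names placed most alpha-zeins on this chromosome. RefSeq names for the assembly Zm-B73-REFERENCE-NAM-5.0 listed 41 alpha-zein genes and pseudogenes, of which 27 were on chromosome 4, 9 on chromosome 7 and 5 on chromosome 1. The 27 comprised 14 of the z1C1 group, 9 of z1A1, 3 of z1A2 and the single z1C2, the gene of the floury2 mutant. The gene of O2 itself is on chromosome 7. The 3545 protein-coding genes of chromosome 4 in that assembly were counted from its start. Of these, z1C1_12, z1C1_4, z1C1_7 and z1C1_8 were numbers 167 to 170, with no other protein-coding gene between them. The z1A1 copies z1A1_4, z1A1_5, z1A1_6 and z1A1_7 were numbers 196 to 199. Further along, z1C2 was number 443 and z1A2_1 and z1A2_2 were numbers 580 and 581. That assembly is not the one behind either peak list, so no O2 site was assigned to any of these genes and no sequence of a site was read. Positions below are those of each list, counted from 1.

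O2 sites on chromosome 4 lay at a density in the middle of the range of the 10 chromosomes. In the later list its 290 sites made up 11.4% of the 2555 sites on chromosomes (95% interval 10.1 to 12.6). Over the 241.7 Mb from its first to its last summit this was 1.20 sites per Mb (1.07 to 1.35), beside 1.25 per Mb (1.20 to 1.31) on the other 9 chromosomes. It stood at place 7 of 10 in density. The earlier list gave 0.832 sites per Mb (0.721 to 0.955) on chromosome 4 and 0.824 (0.783 to 0.867) on the others, at place 6. In both lists the interval of chromosome 4 contains the value of the other 9. A summit was typically 542 kb from the next in the later list (median, quartiles 230.4 and 1205) and 820 kb in the earlier one.

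Sites were found along the whole chromosome, and the fullest 10 Mb bin of the later list was at its very start. The first 10 Mb of the later list held 25 sites (interval 16.2 to 36.9), where the 24 fully covered bins of chromosome 4 had a median of 11.5 sites. The next fullest were the bins from 60 to 70 Mb and from 180 to 190 Mb, with 17 sites each (9.90 to 27.2), and the emptiest was that from 140 to 150 Mb, with 6 (2.20 to 13.1). The interval of the fullest bin overlaps those of the next 2. The partly covered last bin, from 240 Mb to the last summit, held only 5 sites (1.62 to 11.7). Over its 1.78 Mb this was 2.81 per Mb. The place where bins begin also mattered. With bins shifted by 5 Mb, which leave out the first 5 Mb, the fullest held 2.2 later sites per Mb. It lay across the edge at 40 Mb, and the first bin held 2.5 per Mb. A crowded beginning was not restricted to chromosome 4: the first bins of the other 9 chromosomes ran from 8 to 26 sites with a median of 16, the 26 being on chromosome 1. Across all 176 full bins of the other chromosomes the median was 12, the range 3 to 27, and 2 bins had 25 sites or more.

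**Figure D1:**
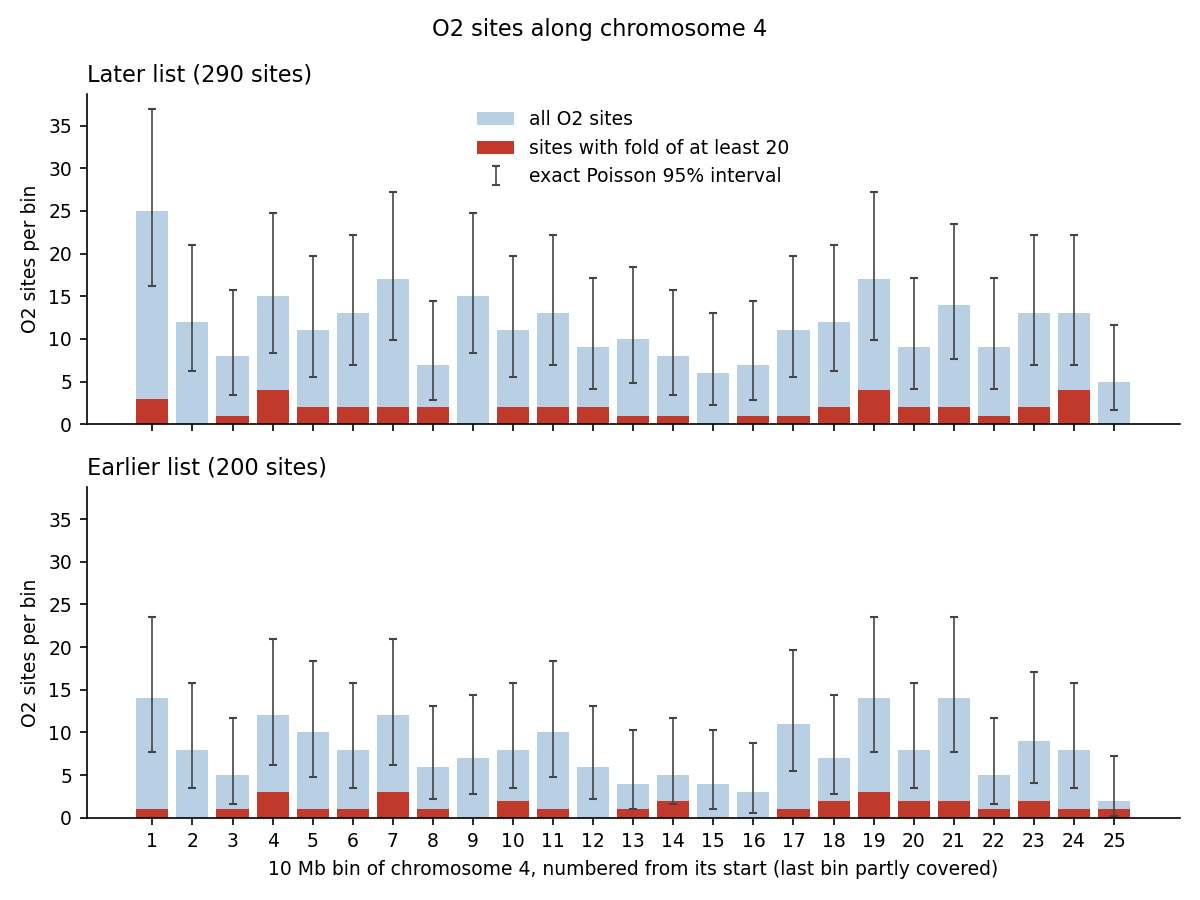
Number of O2 sites in each 10 Mb bin of chromosome 4 (pale bars, with exact Poisson 95% intervals) and number with a fold of at least 20 (red) in the later and the earlier list. The first bin is the fullest of the later list with 25 sites, while in the earlier list 3 bins share the highest count of 14.

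Read from the earlier list, in its own coordinates, the start of the chromosome had no lead over the next fullest bins. The first 10 Mb held 14 sites (7.65 to 23.5), and so did the bins from 180 to 190 Mb and from 200 to 210 Mb. With bins shifted by 5 Mb the fullest held 1.8 sites per Mb, above the 1.4 of these bins. It too lay across the edge at 40 Mb. The emptiest full bin, from 150 to 160 Mb, held 3 (0.619 to 8.77). The partly covered last bin held 2 (0.242 to 7.22) over 0.811 Mb, or 2.47 per Mb. Cut into 5 equal parts of its span, chromosome 4 carried 71, 59, 50, 51 and 59 later sites and 49, 38, 31, 39 and 43 earlier sites. The part at the start was the fullest and the middle part the emptiest in both. One long empty stretch was in both lists: no later site lay between the summits at 144768818 and 151637958, 6.87 Mb apart, and the earlier list had a stretch of the same 6.87 Mb between 144741562 and 151610696. The longest empty stretch of the earlier list, 7.36 Mb, began at 153318708. Both lists come from the same reads, so a shared pattern is no independent support.

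Sites in the crowded first bin had a lower median fold than those beyond, though the difference from the rest was not tested. The 25 later sites of the first 10 Mb had a median fold enrichment of 6.11, against 8.16 at the 265 sites beyond. Fold enrichment is the peak caller's ratio of O2 pileup to an IgG-based background at the summit, with 1 added to both. Their summit pileup, the number of overlapping fragments, ran from 14 to 116 with a median of 30, against 9 to 234 with a median of 32 beyond. Backgrounds were alike in the later list, with a median of 2.94 in pileup units in the first 10 Mb and 2.93 beyond. In the earlier list the median background was higher in the first 10 Mb, 2.98 against 2.36 beyond, and the median pileup was lower, 22.5 against 30. The earlier median folds were 6.80 and 9.34. A low median fold was not particular to the first bin. In single bins of the later list it ran from 5.38 (170 to 180 Mb) to 12.4 (100 to 110 Mb), and it was 5.42 from 10 to 20 Mb. Earlier sites from 10 to 20 Mb and from 170 to 180 Mb were also below the first bin, at 5.56 and 5.78.

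A few sites near the start reached a fold of at least 20. The site at 4696245 to 4696832 had a pileup of 116 against 3.11 in the background (fold 28.5), and the site at 7213524 to 7214022 had 70 over 1.35 (fold 30.2). The third with a fold of at least 20, at 3893698 to 3894123, had 78 over 2.65 (fold 21.7). The remaining 22 sites of the first 10 Mb were below that level. Sites at that level made up 12% of later sites there, beside 15.1% beyond and 12.4% of all chromosomal sites. In the earlier list 1 of the 14 sites there reached it (7.14%), beside 16.7% beyond. Sites of this stretch were picked for description with their values in view.

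Runs of 4 later sites within 50 kb of the next were found on chromosomes 3, 4 and 7, and no chromosome had a longer one. That of chromosome 4 lay in the same stretch. It was made of 4 sites with summits at 5098061, 5122289, 5159033 and 5175942, spaced by 24228, 36744 and 16909 bp. Their pileups were 22, 41, 20 and 32 over backgrounds of 4.67, 8.30, 2.44 and 4.89, giving folds of 4.06, 4.52, 6.11 and 5.6. None of the 4 was a strong site, and 3 of them stood on a background above the chromosome's median of 2.93. The earlier list held 2 sites there, at 5154325 and 5171160, 16835 bp apart, with pileups of 18 and 19. Further along, a pair at 6408157 to 6408498 and 6417761 to 6418123 had summits 9630 bp apart and pileups of 20 and 32, of which the earlier list had a partner for the second, with a pileup of 33.

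Strong sites were scattered over the chromosome. A fold of at least 20 was reached by 43 of the 290 later sites, or 14.8% (10.9 to 19.4), where 12.4% of all chromosomal sites reached it. They fell in 21 of the 25 bins, with at most 4 in any. The highest fold of the later list, 63.2, was at 132241462 to 132242092, in a bin with 8 sites, and its nearest neighbours were 881868 and 2774147 bp away. At 239739711 to 239740264 a pileup of 157 stood over 2.36 (fold 47.0). The site at 177596561 to 177597106 reached a fold of 45.2 with a pileup of 111, because its background, 1.48, was near the lowest of the list, 1.35. The highest pileup on chromosome 4, 234, was at 36375025 to 36375632, with a background of 4.41 and a fold of 43.4.

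The 10 highest folds were completed by 6 sites between 35.4 and 40.3. They were at 50597031 to 50597678 (pileup 197), 124305748 to 124306353 (127), 109191421 to 109191982 (150), 106443299 to 106443864 (122), 41769872 to 41770392 (107) and 203060404 to 203061020 (173). Ranking by pileup brought in 4 other sites, on backgrounds of 3.91 to 8.81. The site at 83299661 to 83300231 carried 191 fragments over 8.81, so that its fold was 19.6. The sites at 67932015 to 67932733 (pileup 155), 64792632 to 64793332 (152) and 239287694 to 239288158 (129) had folds of 31.7, 22.3 and 26.5. These 14 strongest sites were 465 to 719 bp long, while the median site of the chromosome was 378 bp long. Length and pileup are linked by the peak calling itself, so this describes the calls.

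**Figure D2:**
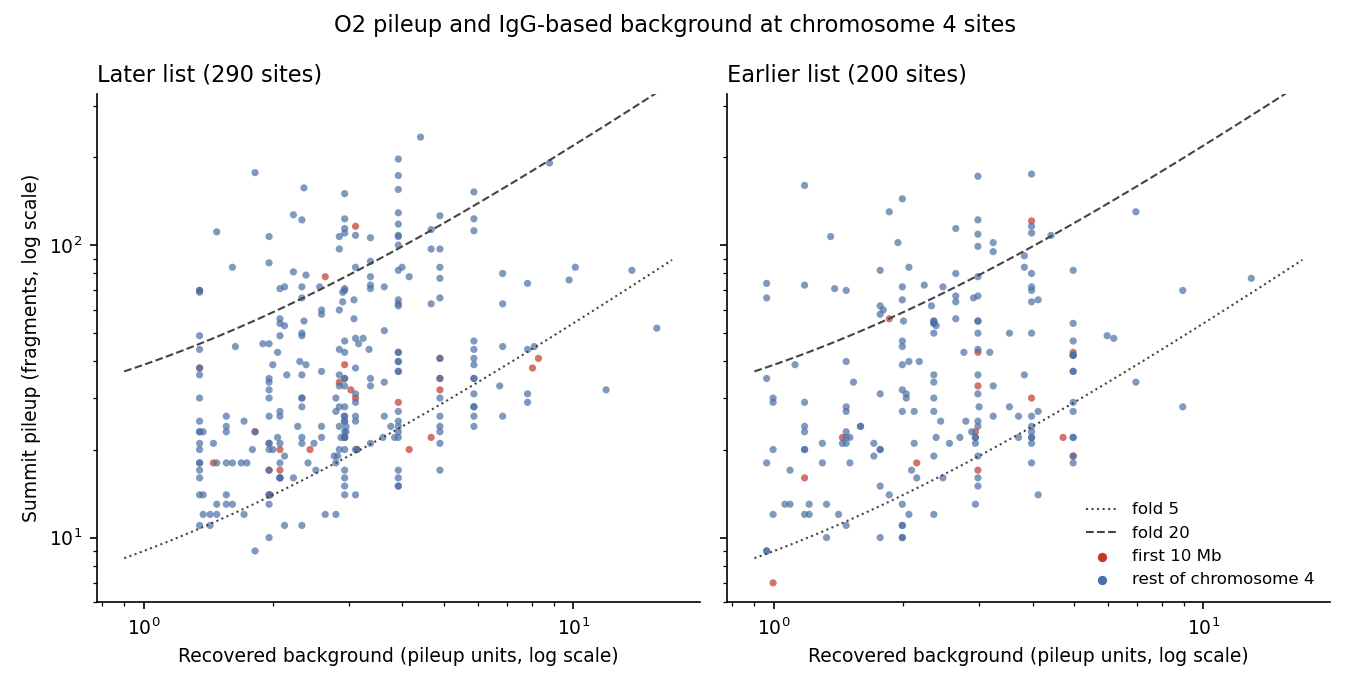
Summit pileup against recovered background for each O2 site of chromosome 4 in both lists, on log axes, with lines of equal fold at 5 and 20. Sites of the first 10 Mb (red) lie mostly between both lines, and the highest pileups stand over backgrounds between 1 and 9 pileup units.

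Pileup on chromosome 4 was at the upper end of the 10 chromosomes without standing apart from them. The median pileup of later summits was 32 (interval 28 to 35), against 29 (28 to 30) on the other 9 chromosomes, and 30 (26 to 36) against 27 (26 to 29) in the earlier one. Chromosome 8 was higher in the later list, at 33, and chromosome 5 equal in the earlier, at 30. The difference lay more in the upper part: the upper quartile was 60 on chromosome 4 and 53 on the others in the later list, and 56 and 48 in the earlier. Lower quartiles were 21 and 20, then 21 and 18.

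Chromosome 4 had the highest share of sites with a pileup of at least 100. There were 29 later sites, or 10% (6.80 to 14.05), where 7.79% of all chromosomal sites passed this level and the other chromosomes ran from 4.32% on chromosome 10 to 9.18% on chromosome 8. Of the earlier sites 16 passed, or 8% (4.64 to 12.7), where 4.70% of all did and the others ran from 1.98% to 6.11%. On the other 9 chromosomes the share was 7.51% in the later list, inside the interval of chromosome 4, and 4.25% in the earlier list, just below it. The place of chromosome 4 also depended on the level, and 75 and 150 were added as levels with the data in view. At a pileup of at least 75 it stood at place 3 in the later list, with 16.9% of its sites, and at 150 at place 2 in the earlier list, with 1.5%. Of the 50 sites with the highest pileup on all chromosomes, chromosome 4 held 9 in the later list and 11 in the earlier. It held 11.4% and 11.9% of all chromosomal sites. Each of the other chromosomes held 2 to 7 of these 50 in the later list and 1 to 13 in the earlier, the 13 being on chromosome 1.

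**Figure D3:**
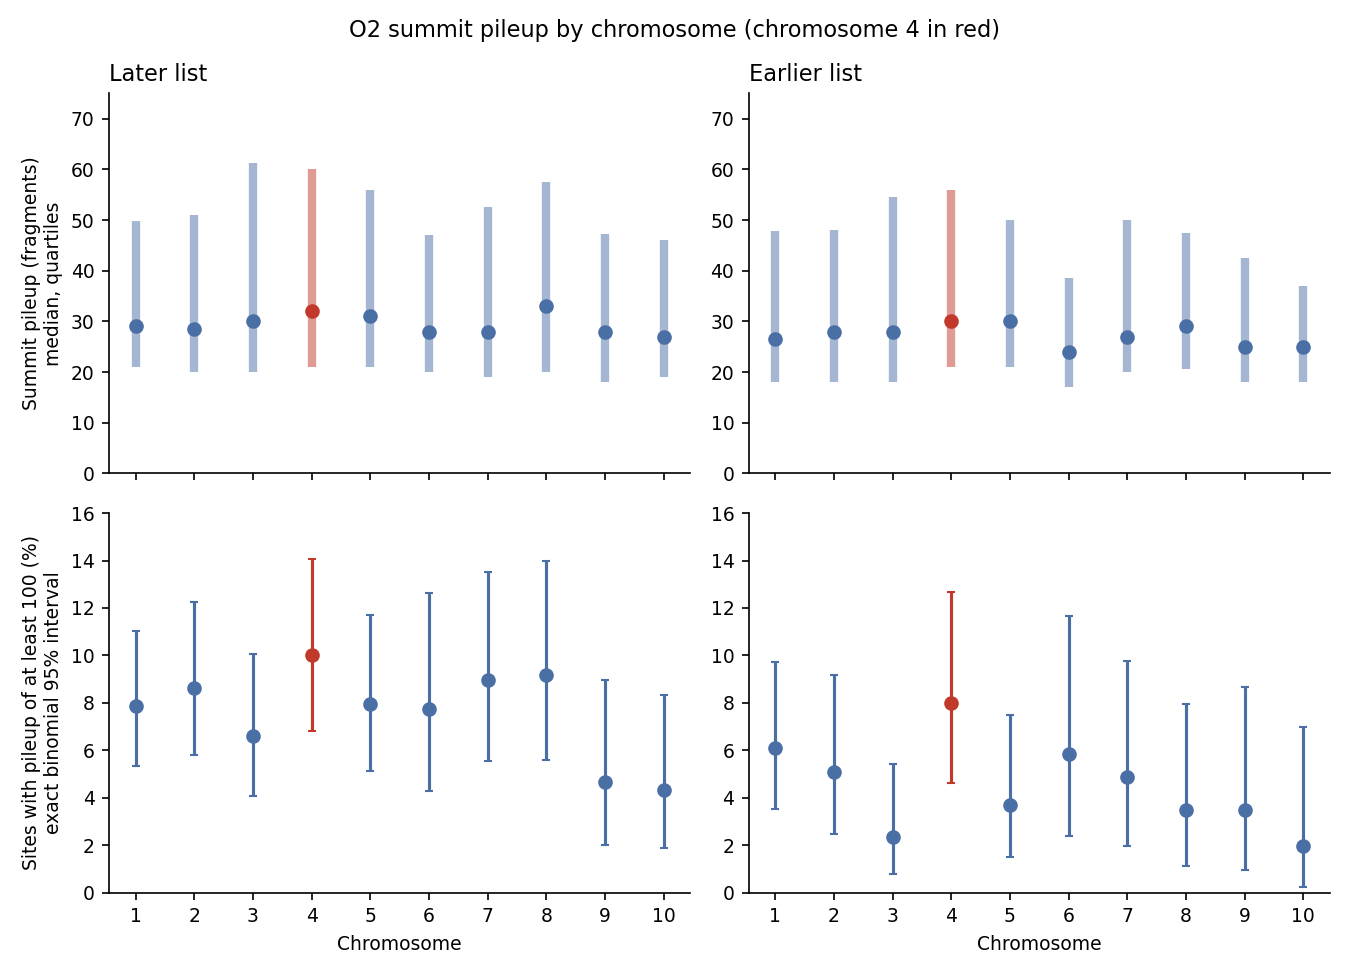
Upper panels: median summit pileup (points) with quartiles (bars) for each chromosome in both lists. Lower panels: share of sites with a pileup of at least 100 with exact binomial 95% intervals. Chromosome 4 (red) has the highest share in both lists, 10% and 8%, with intervals that overlap those of every other chromosome.

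By fold the picture was similar. The median fold was 7.78 (7.37 to 8.95) on chromosome 4 and 7.62 (7.43 to 7.85) on the others in the later list, and 9.22 (7.66 to 10.4) and 8.02 (7.65 to 8.27) in the earlier list. A fold of at least 20 was listed for 32 earlier sites of chromosome 4, or 16% (11.2 to 21.8), where 11.8% of all chromosomal sites had it, and no other chromosome was above 12.7%. In the later list chromosome 3, with 14.9%, was just above the 14.8% of chromosome 4. Chromosome 4 thus held 12.2% of all later and 13.4% of all earlier pileup above background, with 11.4% and 11.9% of the sites.

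Weak sites made up a similar share. A fold under 5 was listed for 43 later sites of chromosome 4, again 14.8%, where 17.8% of all chromosomal sites had it, and for 32 earlier sites (16%, where 15.4% of all did). The lowest folds of the later list were 2.55 at 15290762 to 15291072, over a background of 11.9 and with 32 fragments at the summit, and 3.05 at 13252828 to 13253166. They were followed by 3.18 at 100677269 to 100677669, with 52 fragments over 15.7, the highest background of chromosome 4. The sites at 140791067 to 140791331 and 228086105 to 228086376 shared a fold of 3.26. No site of chromosome 4 had a background of 20 or more in either list. A background of at least 10 was found at 4 later sites (1.38%, where 1.21% of all chromosomal sites had it) and 1 earlier site (0.5%, where 0.416% of all did).

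The closest neighbours on chromosome 4 came as pairs. Within 10 kb there were 7 runs in the later list, all of them pairs, so that 2.41% of sites (0.976 to 4.91) had the next summit that close, where 2.35% of all chromosomal sites did. The tightest pair had summits 1796 bp apart, at 188052369 to 188052633 and 188054038 to 188054561, with pileups of 23 and 88. Pileups of 49 and 37 stood 2612 bp apart at 185910071 to 185910525 and 185912695 to 185913109. At 202677676 to 202678094 and 202680726 to 202681263 the pileups were 25 and 69, 3118 bp apart, and the second member, on the lowest background of 1.35, had a fold of 29.8.

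The other pairs had no pileup above 39. One at 57974187 to 57974619 and 57978214 to 57978496 had pileups of 39 and 22 at a distance of 3932 bp. One at 140791067 to 140791331 and 140798725 to 140798995 had 15 and 22 at 7657 bp, and one at 202218874 to 202219184 and 202228560 to 202229024 had 31 and 32 at 9769 bp. The remaining pair was that near 6.41 Mb given above. Across the 7 pairs the stronger member had between 1.03 and 3.83 times the pileup of the weaker. This ratio was at least 2 in 2 of them. No member of a pair reached a pileup of 100, and the median pileup of the 14 paired sites, 31.5, was close to the 32 of all other sites of the chromosome.

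Of these pairs 4 were also in the earlier list, which had no further pair on chromosome 4 and where 2% of sites (0.548 to 5.04) had the next summit within 10 kb against 1.73% of all chromosomal sites. Their summits were 3933, 2626, 9791 and 3129 bp apart. The first had its summits at 57949254 and 57953187 with pileups of 40 and 21. The next 2 had pileups of 22 and 37 at 185734766 and 185737392 and of 34 and 21 at 202041162 and 202050953. In the last, a pileup of 13 at 202500020 stood beside one of 73 at 202503149, a ratio of 5.62.

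Some of the strongest sites had another site at a greater distance, weaker by the way they were picked. Within 50 kb the later list had 19 runs with 41 sites, 17 of them pairs, and 7.59% of sites had the next summit within that distance, where 8.02% of all chromosomal sites did. The earlier list had 11 such runs with 23 sites, and 6% of its sites had the next summit that near, where 6.01% of all did. Of the 29 later sites with a pileup of at least 100, 4 were in such a run, beside 41 of all 290 later sites. In the earlier list 0 of 16 were. The highest pileup of the chromosome, 234, was 14247 bp from a site with 49 (fold 21.3). The site with a pileup of 191 was 17249 bp from one with 48, that with 157 was 45738 bp from one with 19, and one with 113 at 97006685 to 97007168 was 19378 bp from one with 14. In 10 of the 19 runs the strongest site had at least 2 times the pileup of the weakest, and the highest ratio was 8.26.

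**Figure D4:**
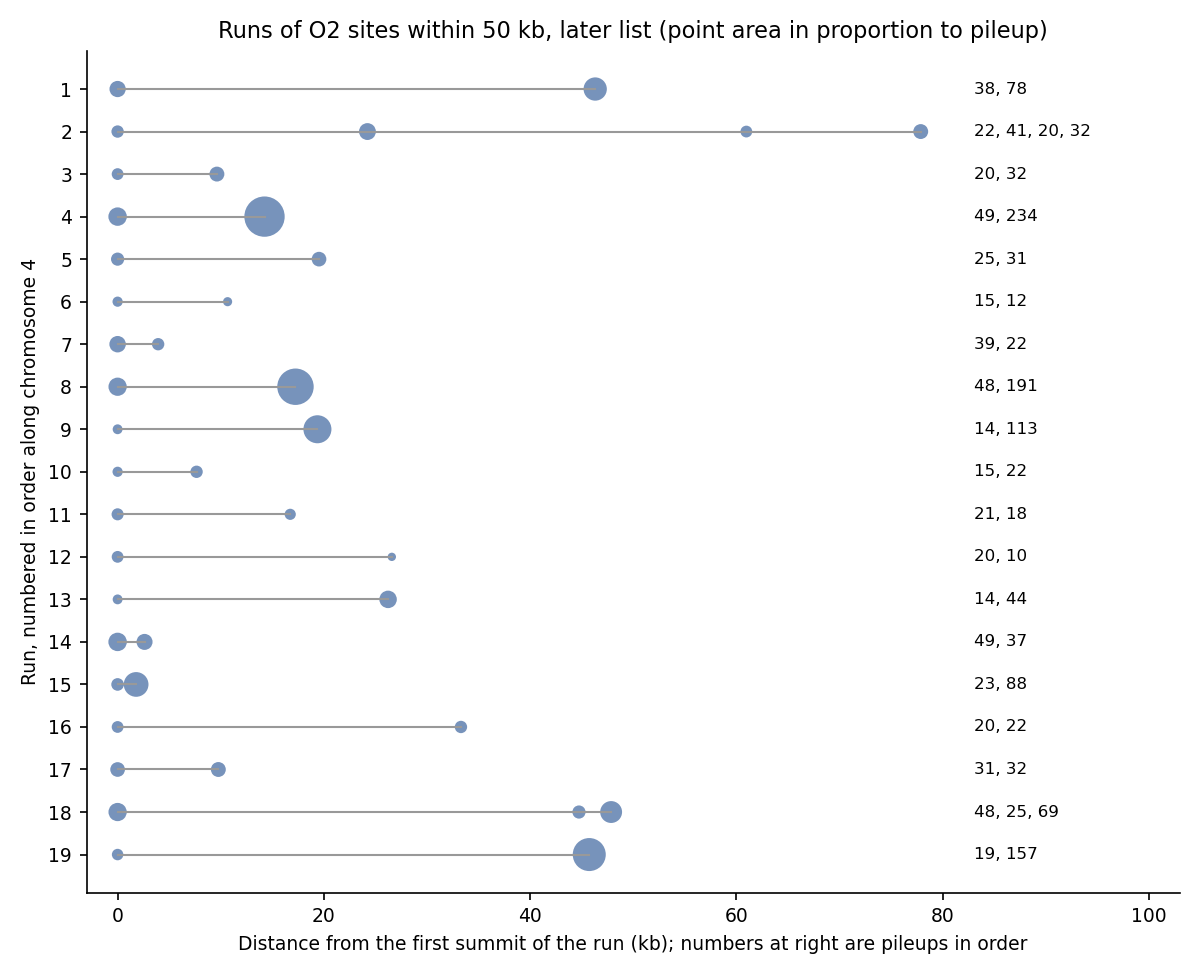
All 19 runs of chromosome 4 sites with summits within 50 kb of the next in the later list, drawn by distance in kb from the first summit of each run, with point area in proportion to pileup. The longest run has 4 sites over 77.9 kb with pileups from 20 to 41, while the pileups of 234, 191, 157 and 113 each stand beside a single weaker site.

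The earlier list gave a different order at the top. Its highest fold on chromosome 4, 73.9, was at 36341932 to 36342491, with 160 fragments over 1.18. The next were 48.5 at 132213689 to 132214288 (pileup 144), 45.9 at 124280713 to 124281336 (130), 45.9 at 177567153 to 177567702 (107) and 43.4 at 50569647 to 50570314 (172). The other 5 of the top 10 had folds from 34.0 to 38.2 and pileups of 74 at 70824975 to 70825495, 175 at 202882549 to 202883178, 102 at 67906366 to 67906897, 66 at 38286564 to 38287136 and 73 at 202502877 to 202503525.

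Sites of both lists were linked by the spacing of their neighbours, which needs no conversion of coordinates. A link required at least 2 neighbours at the same offset within 500 bp. This linked 157 sites, or 78.5% of those in the earlier list and 54.1% of those in the later list on chromosome 4. On the other 9 chromosomes it linked 72.5 to 86.8% of earlier and 43.8 to 56.1% of later sites. With neighbours required to fit within 50 bp, 86 sites of chromosome 4 were linked, or 43% of those in the earlier list. The offset of linked summits rose from 4264 bp near the start of the chromosome to 543848 bp near its end, which is why printed positions of both lists must not be compared directly.

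Pileup at linked sites was mostly close in both lists, and more often higher in the later one. The later pileup was higher at 108 sites, lower at 44 and equal at 5, with a median ratio of 1.09 (quartiles 0.977 and 1.33). Among the 14 strongest later sites, 13 had a link, and these varied widely. Pileups were close at 203060404 to 203061020, with 173 later and 175 earlier fragments, at 124305748 to 124306353, with 127 and 130, and at 177596561 to 177597106, with 111 and 107. They were 177 and 144 at the site of the highest later fold, 197 and 172 at 50597031 to 50597678 and 150 and 122 at 109191421 to 109191982. Wider gaps were 234 and 160 at the site of the highest earlier fold, 155 and 102 at 67932015 to 67932733, 107 and 70 at 41769872 to 41770392 and 122 and 55 at 106443299 to 106443864. At the site of the highest earlier fold, pileup was higher in the later list but the fold was lower, 43.4 against 73.9, because the background was 4.41 there and 1.18 in the earlier list.

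Some sites were much higher in the later list. The ratio was at least 2 at 16 linked sites and at no site 0.5 or below. The widest gap, 9.92 times, was at 239287694 to 239288158, with 129 later and 13 earlier fragments. At the later summit 151637958 the pileups were 112 and 20, at 72565600 they were 97 and 20, at 83299950 they were 191 and 55 and at 64792965 they were 152 and 65. The second highest fold of the later list on this chromosome, at 239739711 to 239740264, had no link to the earlier list, which does not show that it was absent there. Peak names of the earlier list contain the word "uniq". How either list treated reads that match several places is not given here, and its part in these gaps was not tested.

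**Figure D5:**
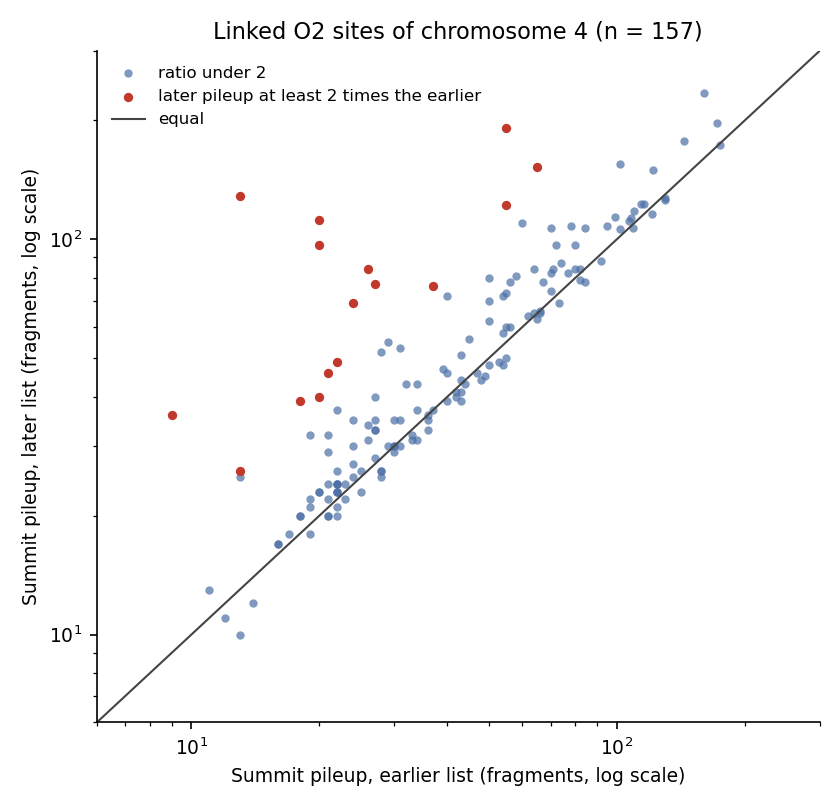
Summit pileup in the later against the earlier list for the 157 linked sites of chromosome 4, on log axes, with the line of equal pileup. Most points lie near the line, and the 16 sites with a later pileup at least 2 times the earlier (red) reach a ratio of 9.92.

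Later sites of chromosome 4 without a link were weaker as a group. The 133 of them had a median pileup of 22 and a median fold of 6.32, against 44 and 11.2 at the 157 linked ones. A fold of at least 20 was reached by 8 of the 133 and by 35 of the 157, where 12.4% of all chromosomal sites reached it. In the first 10 Mb 11 later sites were linked and 14 were not. The 43 earlier sites without a link had a median pileup of 17 and at most 73. A missing link does not show that a site was absent from the other list, since a link needs 2 fitting neighbours. The later summits 23214629 and 23431768 had no link, with pileups of 27 and 72. Unlinked earlier summits at 23189667 and 23406804 had pileups of 25 and 73 and nearly the same spacing.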

How the data were processed

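Chromatin immunoprecipitation with sequencing gave 1 anti-O2 and 1 IgG library. Per the submitters' processing notes, Bowtie2 and MACS2 (versions 2.0.10 and 2.1.0) were used. For the version behind each list, the assembly and the read filters: not given in the sources used here. Per the file headers, the authors deposited for each peak its coordinates, a pileup signal at the summit, a fold enrichment ratio, and -log10 p and -log10 q values (in the later list both headers were overwritten and the columns were identified by order). The deposited summit lists, filed under IgG, equalled the peak lists at all 2567 and 1686 sites.

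Sites were counted with Python 3.11.15, NumPy 2.4.6, SciPy 1.17.1 and pandas 2.3.3. Background was recovered as (pileup + 1) / fold - 1, and the Poisson p recomputed from it differed by at most 2.46e-05 on the -log10 scale. Links were mutual best pairs of an earlier and a later summit at most 1.5 Mb apart in printed position. The neighbours backing a pair were sought among the 5 nearest earlier summits on each side. The binning and runs were checked on short made-up lists of positions, and the links on data simulated from the later summits of chromosome 4.

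Sites named are the 10 highest by fold and by pileup, the 5 lowest by fold, all runs within 10 kb and the fullest and emptiest bins of the later list, with the 10 highest by fold, the runs and the bins of the earlier list. Chromosome 4, these rules and all settings were chosen with earlier results of these data known. Planned motif searches in promoters were not run, since no promoter sequence was used here.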

Additional observations from a re-analysis of the deposited data

How the results depend on the processing

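Of 40 alternative values, 29 stayed within the counting interval of the reported value or, for counts, within 1.5 times of it. Apart from the share of linked sites, the others changed by construction, since another level or distance defines another set. The share of sites with the next summit within 50 kb in place of 10 kb was 7.59% for later and 6% for earlier sites. With a fold of at least 10 in place of 20 the share was 38.6% and 44%, and with 30 it was 5.17% and 7%. With a pileup of at least 75 in place of 100 it was 16.9% and 13.5%, and with 150, the other level added with the data in view, it was 3.10% and 1.5%. The share of earlier sites linked fell from 78.5% to 43% when neighbours had to fit within 50 bp. Which sites count as linked or unlinked thus depends on this setting. In the earlier list the fullest bin held 1.4 sites per Mb in 10 Mb bins. With these bins shifted by 5 Mb it held 1.8, and with 5 Mb bins 2.2, both within the interval. No paired analysis was possible because there is 1 library per antibody, and for the same reason no library could be left out. Peaks are calls of 1 comparison, so their spread along the chromosome is no replicate error.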
